A study of Homo sapiens with 2 samples.

Results

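The guides described here target 9 genes that restrain cell growth: the CDK inhibitors CDKN1A, CDKN1B and CDKN2A, the retinoblastoma gene RB1, the Hippo pathway genes NF2, LATS1 and LATS2, the RAS brake NF1 and the TGF-beta mediator SMAD4. They were chosen by gene name, and they were 9 of the 19051 protein-coding genes of the pool, with 54 of its 114123 protein-coding guides (6 per gene). The question put to them was whether their guides were abundant in the unsorted cells. Guide DNA had been counted in the ovarian cancer line SK-OV-3, long established in culture and here stably carrying a transcriptional readthrough (TRT) reporter in which mCherry stands for the COMMD3 gene and EGFP for its neighbour BMI1, so that EGFP appears when transcription does not end between them. The GeCKO v2.0 pool of lentiviral knockout guides was delivered to these cells with a multiplicity of infection near 0.3 and puromycin selection at 2 µg/mL. The unsorted library came from the parental pool and the TRT-negative library from cells sorted as mCherry-positive and EGFP-negative. The reporter and the guide pool were common to both populations. The control sample is titled with both fluorescent proteins, and it was read as unsorted because the design describes the comparison so.

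Each condition was 1 library, with 12882989 reads before and 12444427 after the sort, so no difference between conditions was tested. Few guides were read, since 10.5% of table rows had an unsorted read (12956 rows) and 22.7% a TRT-negative read (28064 rows). The unsorted library thus held fewer guides than the library of cells sorted from that pool. A guide without an unsorted read is therefore not shown to be absent from the unsorted cells. Intervals given below are exact 95% intervals and cover counting error only, since PCR reads without molecular identifiers are not independent molecules. Guide DNA says nothing of expression, so neither the cell line nor the loss of any protein could be checked. The starting plasmid pool was not analysed here, and the time from transduction to sorting is not given in the sources used here.

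These genes belong to a few well-known circuits. CDKN1A (p21) and CDKN1B (p27) bind and inhibit cyclin-dependent kinases, and CDKN2A encodes p16, which inhibits CDK4 and CDK6, and, from another reading frame, ARF, which stabilises p53. RB1 holds back E2F transcription factors until those kinases phosphorylate it. NF2 (merlin) activates the kinases LATS1 and LATS2, which keep the growth-promoting co-activators YAP1 and WWTR1 (TAZ) out of the nucleus. NF1 (neurofibromin) switches RAS off by speeding its GTP hydrolysis, and SMAD4 is the shared partner of the SMADs that carry TGF-beta and BMP signals. In pooled knockout screens, cells that lose such a brake can outgrow their neighbours, and their guides then gain reads with time in culture. SK-OV-3 is commonly described as having lost CDKN2A by deletion, which these counts cannot show.

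Of the 9 genes, 7 had a guide with reads in the unsorted library (77.8%, interval 40.0% to 97.2%), against 46.9% of all protein-coding genes, a share inside that interval. In each of the 7 it was 1 guide of 6. By guide, 7 of 54 had unsorted reads (13.0%, interval 5.37% to 24.9%), against 10.5% of all protein-coding guides. RB1 and SMAD4 had no read on any of their 6 guides in either library, so nothing was measured for them. That alone did not set them apart, since 53.0% of the protein-coding genes with 6 guides had no unsorted read, and 22.9% had no read in the TRT-negative library.

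Where they were read in the unsorted cells, the guides of these genes did not stand above those of other genes. Their 7 counts had a median of 619 reads and ranged from 24 to 2227, while the 11943 detected protein-coding guides had a median of 770. A guide was called abundant at or above that median of 770 reads, which 3 member guides were (5.56%, interval 1.16% to 15.4%), against 5.23% of all protein-coding guides. Those 3 target CDKN2A, LATS2 and LATS1. At the 90th percentile of detected guides, 2021 reads, only the CDKN2A guide remained. No other protein-coding row had the same pair of counts as any of these 7, so none showed among those rows the identical counts that guides of shared sequence would give.

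**Figure D1:**
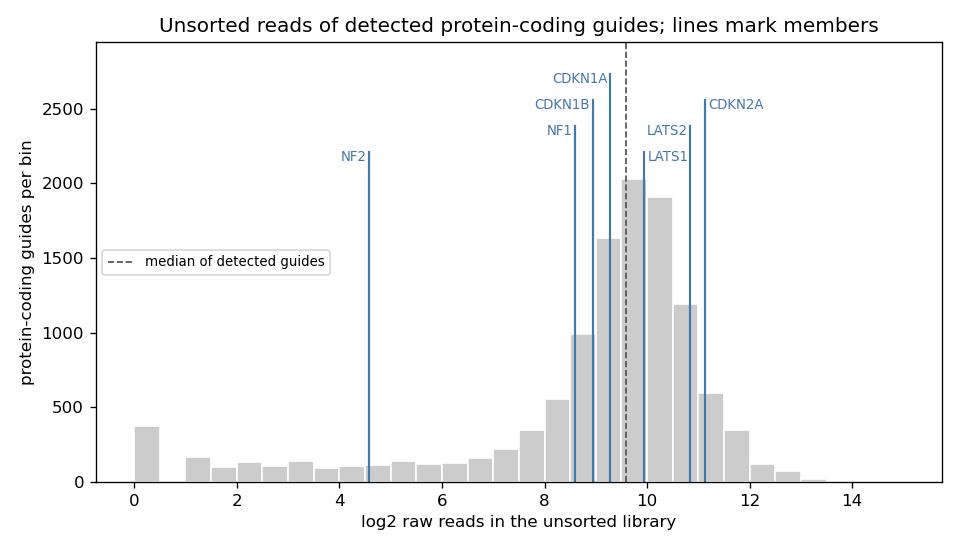
Grey bars count detected protein-coding guides by raw reads in the unsorted library (log2 scale, bins of 0.5), blue lines mark the 7 member guides with reads each labelled at its top, and the dashed line the median of 770 reads. CDKN2A, LATS2 and LATS1 lie above the median, 3 lines lie shortly below it, and NF2 lies in the low tail at 24 reads.

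The cell cycle inhibitors each had 1 guide with unsorted reads, and all 3 had lower normalized counts in the TRT-negative library. Lower was the common direction under the deposited scaling among guides with at least 30 unsorted reads. Their median log2 ratio was -0.64 for protein-coding and -0.89 for non-targeting guides. This minimum selects on the unsorted count and leaves out guides read only after sorting. Its part in the lower direction was not tested. The CDKN2A gene lies on chromosome 9 at 21967752 to 21995301 (hg38, minus strand). Its guide had 2227 unsorted and 377 TRT-negative reads. It was the most abundant of the 54 in the unsorted library, at place 976 of 11943 detected protein-coding guides, with 91.8% of them at or below it. After size-factor scaling its count was 5.68-fold lower in the TRT-negative library (log2 ratio -2.51, interval -2.67 to -2.35), the lowest ratio among these genes. Of 156 non-targeting guides with at least 30 unsorted reads, 8 had a lower ratio, so guides without a target also reached it.

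CDKN1A, on chromosome 6 at 36676460 to 36687337 (plus strand), had 1 read guide, counted 619 times before and 211 times after sorting. This is 2.82-fold lower in the TRT-negative library (log2 ratio -1.49, interval -1.73 to -1.27). CDKN1B, on chromosome 12 at 12685498 to 12722369 (plus strand), had a guide with 490 and 229 reads, 2.06-fold lower (log2 ratio -1.04, interval -1.28 to -0.81). Both lay well within the spread of the non-targeting guides, of which 41 of 156 were below CDKN1A and 72 of 156 below CDKN1B. CDKN1B was the gene with the most guides read in the sorted cells, since 2 further guides, without an unsorted read, were counted there 23 and 16 times. Those low counts lay under the 35 reads that were the median of the 14434 protein-coding guides read only in the TRT-negative library. RB1, on chromosome 13 at 48303744 to 48599436 (plus strand), was without reads, as given above.

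**Figure D2:**
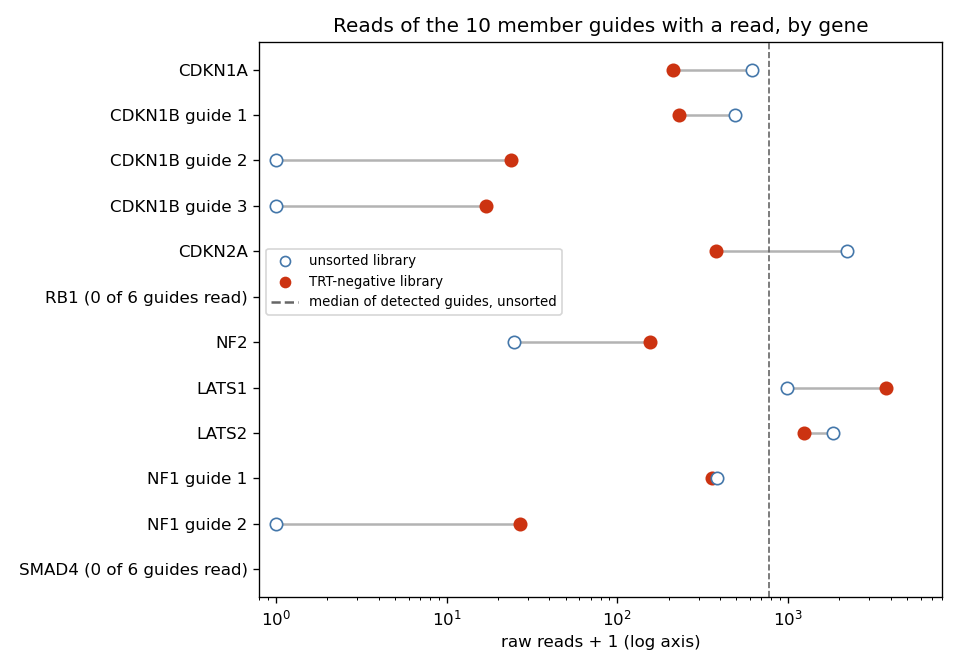
Each row is a guide with a read in either library, grouped by gene, and the log axis gives raw reads plus 1, with unsorted counts as open and TRT-negative counts as filled symbols, and counts of 0 at 1. LATS1 and NF2 lie further right in the TRT-negative library, CDKN2A, CDKN1A, CDKN1B and LATS2 further left for their best-read guide, and RB1 and SMAD4 have no guide with reads.

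Among the 7 guides with unsorted reads, those of the Hippo genes LATS1 and NF2 had higher normalized counts in the sorted cells under the deposited scaling, while with non-targeting guides as scale LATS2 and NF1 were higher too. LATS1, on chromosome 6 at 149658153 to 149718105 (minus strand), had 1 read guide, with 983 reads before and 3763 after sorting. Its normalized count was 3.97-fold higher in the TRT-negative library (log2 ratio 1.99, interval 1.89 to 2.09), and it stood at place 565 of the 25788 protein-coding guides read there. Of the 10616 protein-coding guides that had 30 or more unsorted reads, 95.6% had a ratio at or below it, and 3 of 156 non-targeting guides were above it. A small group of guides lay between a log2 ratio of 1.5 and 2.5, with LATS1 among them. It held 907 protein-coding guides (8.54%), 11 non-targeting guides (7.05%, interval 3.57% to 12.3%) and 21 of 211 olfactory receptor guides (9.95%, interval 6.27% to 14.8%). In bands of equal width, 3.20% of protein-coding guides lay from 1.0 to 1.5, 4.58% from 1.5 to 2 and 3.97% from 2 to 2.5. Among protein-coding guides the dip below the group was thus shallow. The other 5 LATS1 guides had no read in either library, so no second guide bears on the value.

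LATS2, the paralogue of LATS1 on chromosome 13 at 20973036 to 21061586 (minus strand), had a guide with 1829 and 1235 reads. It was the second most abundant of these guides in the unsorted library, with 87.7% of detected protein-coding guides at or below it. Its ratio was 1.43-fold lower (log2 ratio -0.51, interval -0.62 to -0.41, but 0.39 with non-targeting guides as scale), close to the protein-coding median of -0.64, so both LATS kinases were represented but lay apart in ratio. NF2, on chromosome 22 at 29603556 to 29698598 (plus strand), had a guide with 24 and 155 reads. Its count was 6.47-fold higher in the TRT-negative library (log2 ratio 2.69, interval 2.12 to 3.43). It rests on few unsorted reads, and among 366 protein-coding guides with 10 to 29 unsorted reads the ratio had an SD of 2.46 on the log2 scale, with 97.0% at or below NF2.

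NF1 and SMAD4 act on separate pathways, and only NF1 was measured, through 1 guide with unsorted reads. NF1, on chromosome 17 at 31094927 to 31382116 (plus strand), had a guide counted 385 times before and 356 times after sorting (log2 ratio -0.06, interval -0.27 to 0.15, and 0.84 with non-targeting guides as scale), and a second guide with 0 and 26. The interval of the first spans 0 before any spread between guides is counted. Among the 7 genes that were read it had the lowest unsorted count apart from NF2, with 26.4% of detected protein-coding guides at or below it. SMAD4, on chromosome 18 at 51028528 to 51085045 (plus strand), was without reads.

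Set together, the ratios of these genes spread somewhat more than those of guides without a target, though this rests on 6 guides. The 6 guides with at least 30 unsorted reads had a median log2 ratio of -0.78 (SD 1.53, n = 6). For the 156 non-targeting guides of that depth the median was -0.89 with an SD of 1.33, and the central 95% ran from -2.73 to 1.91. LATS1 lay just above that range, at 1.99, and inside the protein-coding range of -3.05 to 2.13, and the other 5 lay inside both. At least 2-fold higher was 1 of 6 (16.7%), against 12.1% of protein-coding guides of that depth, and at least 2-fold lower were 3 of 6 (50.0%), against 39.2%. With the non-targeting guides as scale, 1 of 6 was at least 2-fold higher, against 32.0%, and 1 of 6 at least 2-fold lower, against 12.6%.

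The zero of the ratio depends on the scaling. Setting the non-targeting median to 0 moved the protein-coding median by 0.90 on the log2 scale, and turned LATS2 and NF1 to the higher side at 0.39 and 0.84, while LATS1 stayed higher at 2.89 and CDKN2A lower at -1.60. CDKN1A then stood at -0.59 and CDKN1B at -0.14. Relative to the protein-coding median, with the deposited scaling, the ratios ran from CDKN2A at -1.87 through CDKN1A at -0.86, CDKN1B at -0.40, LATS2 at 0.12 and NF1 at 0.58 to LATS1 at 2.63.

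**Figure D3:**
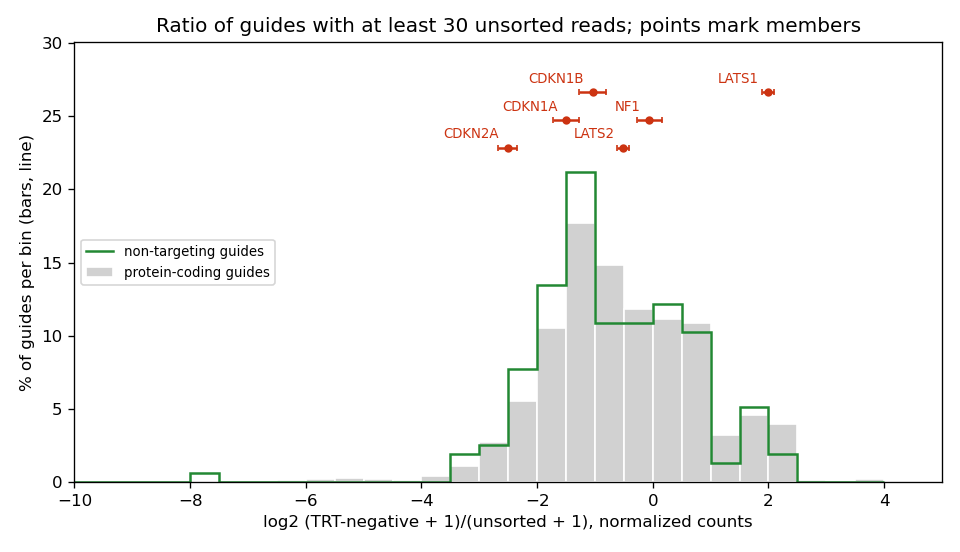
Bars and the green line give the percentage of protein-coding and non-targeting guides by the log2 ratio of normalized counts, TRT-negative over unsorted, for guides with at least 30 unsorted reads, and red points the 6 member guides with exact 95% counting intervals (their height has no meaning). LATS1 at 1.99 lies in the small group between 1.5 and 2.5 that holds both classes, and CDKN2A at -2.51 in the lower flank.

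The call for enrichment in the TRT-negative cells could in practice be met only by guides with few or no unsorted reads. Enrichment was defined as a log2 ratio above 5.93, which 95% of the rows of non-targeting guides did not exceed, and a guide without unsorted reads needed 60 TRT-negative reads for it. The highest ratio of any protein-coding guide with at least 30 unsorted reads was 3.76, so the 6 such guides of these genes had little room to be called, and 44 of the 54 guides had no read in either library. For the record, 0 of 54 guides were called (exact interval 0% to 6.60%, or up to 5.56% when 0 is taken as at most 3 counts), against 2.87% of all protein-coding guides, and nothing is read from this count. Guides of these genes were read in the TRT-negative library in 10 of 54 cases (18.5%, interval 9.25% to 31.4%), against 22.6%, and 7 of 9 genes had such a guide, against 77.0% of all. All 7 guides with unsorted reads were read again after sorting, as were 95.1% of protein-coding guides. Guides read only after sorting were 3 of 54 (5.56%, interval 1.16% to 15.4%), against 12.6%. Each of these background shares of read guides and genes lay inside the counting interval of the 9 genes.

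A few guides held most of the reads. The 54 rows are 0.0438% of the table and took 0.0509% of the unsorted and 0.0514% of the TRT-negative reads. CDKN2A and LATS2 supplied 61.9% of their unsorted reads, and LATS1 alone 58.9% of their TRT-negative reads. Without LATS1 the share of TRT-negative reads was 0.0211%, and without CDKN2A the share of unsorted reads was 0.0336%. In either case the 48 rows left are 0.0389% of the table. By sublibrary of the pool, A or B, unsorted reads were found for 3 of 27 guides in A (CDKN1A, CDKN2A and NF2) and 4 of 27 in B (CDKN1B, LATS1, LATS2 and NF1). These are 11.1% and 14.8%, against 9.89% and 11.0% of the protein-coding guides of A and B.

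Other genes of the same pathways were counted from lists that leave the 9 genes out, and the genes named from each were picked for their high unsorted reads or their enriched guides, so those values are a description. Among 20 other growth-restraining tumour suppressors, 14 genes had a guide with unsorted reads (70.0%, interval 45.7% to 88.1%). Of all protein-coding genes 46.9% had one, a share inside that interval. By guide, 19 of 120 had unsorted reads (15.8%, interval 9.81% to 23.6%). This was the highest share of the lists, and its interval still held the 10.5% of all protein-coding guides. Abundant guides were 8 of 120 (6.67%, interval 2.92% to 12.7%, against 5.23%). PBRM1, a subunit of a SWI/SNF remodelling complex, was read 2809 times before and 977 times after sorting through 1 guide. FBXW7, a ubiquitin ligase receptor that targets cyclin E, had 3 guides with 982, 797 and 789 unsorted reads, which had 255, 814 and 206 after sorting. NPRL2, an inhibitor of mTORC1 signalling, held 2 of the 4 enriched guides of this list (3.33% of its 120, against 2.87%), with 0 unsorted reads and 90 and 117 after sorting, beside a guide with 834 and 403.

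In the circuit of RB1 and the CDK inhibitors, 13 of 132 guides had unsorted reads (9.85%, interval 5.35% to 16.3%), 4 were abundant (3.03%, against 5.23% of all protein-coding guides) and 2 were enriched after sorting (1.52%, against 2.87%). The intervals of both shares held the background. E2F2, an activator of S-phase genes that RB1 holds back, had 3 abundant guides with 2959, 2730 and 1822 unsorted reads. All 3 had lower counts in the TRT-negative library, at 1557, 1652 and 534. CCNE2, a cyclin that drives S-phase entry, had a guide with 4327 and 4832 reads. CDKN2D, a relative of CDKN2A that inhibits the same kinases, had a guide with 469 and 614 reads and an enriched one with 0 and 75.

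Of the Hippo list, 13 of 132 guides had unsorted reads (9.85%), 7 were abundant and 7 were enriched after sorting. Both shares were 5.30% (interval 2.16% to 10.6%), which held the protein-coding 5.23% of abundant and 2.87% of enriched guides. STK4, a kinase upstream of LATS1 and LATS2, had guides that went from 1589 to 444 and from 386 to 643 reads, and an enriched one with 65. TEAD4, a DNA-binding partner of YAP1, was read through a guide with 1167 and 5355 reads, a log2 ratio of 2.25, which lies in the same small group as LATS1. PTPN14, a phosphatase that restrains YAP1, had a guide with 1092 and 1436 reads and an enriched one with 94.

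The RAS list had the fewest guides with unsorted reads, 6 of 126 (4.76%, interval 1.77% to 10.1%), of which 3 were abundant (2.38%, against 5.23%), and 3 of the 126 were enriched after sorting (2.38%, against 2.87%). The upper bound of 10.1% lay just under the 10.5% of all protein-coding guides. SPRY4, an inhibitor of RAS signalling, had a guide with 1668 and 1412 reads and 2 enriched ones counted 80 and 72 times after sorting. LZTR1, which promotes the degradation of RAS proteins, had a guide with 965 and 309. Of TGF-beta and BMP signalling, 9 of 126 guides had unsorted reads (7.14%, interval 3.32% to 13.1%), 5 were abundant (3.97%, against 5.23%) and 4 were enriched (3.17%, against 2.87%). The receptor BMPR2 had guides that went from 1849 to 616 and from 1508 to 635 reads, and the receptor ACVR1 guides that went from 1509 to 1403 and from 1294 to 341. TGFB2, a ligand, had an enriched guide with 94 reads and another with 31, both from 0.

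**Figure D4:**
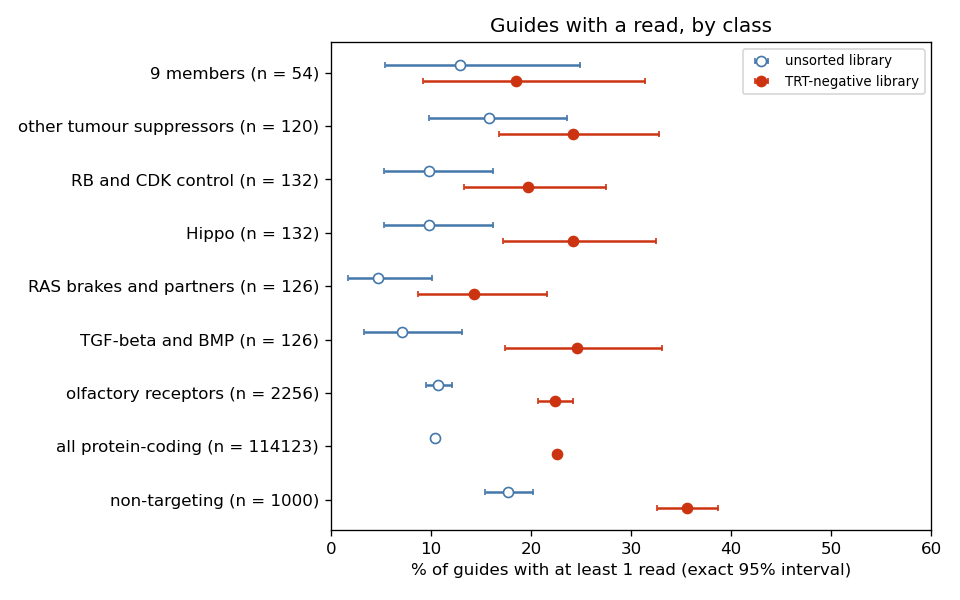
Points give the percentage of each class of guides that was read at all, open for unsorted and filled for TRT-negative cells, with exact 95% intervals (for all protein-coding guides narrower than the point) and the number of guides in brackets. The 9 genes, at 13.0% and 18.5%, have intervals that hold the protein-coding shares of 10.5% and 22.6%, and non-targeting guides stand higher at 17.7% and 35.6%.

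Guides without a target had unsorted reads in a share that the interval of the 9 genes, 5.37% to 24.9%, also held. Of 1000 non-targeting guides, 17.7% had unsorted reads (interval 15.4% to 20.2%) and 9.90% were abundant (interval 8.12% to 11.9%). In the TRT-negative library 35.6% of them were read (interval 32.6% to 38.7%), above the interval of 9.25% to 31.4% for the 9 genes, and the difference was not tested. Olfactory receptor guides, aimed at genes that most tissues do not use, had unsorted reads in 10.7% of 2256 cases (interval 9.48% to 12.1%) and were abundant in 5.10% (interval 4.23% to 6.09%). Non-targeting guides are listed in both sublibraries and targeting guides in 1, and the part this plays in their share was not tested. The 5.56% of abundant guides among the 9 genes thus lay near the shares of both the protein-coding and the olfactory receptor guides.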

How the data were processed

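Genomic DNA from the unsorted and the sorted cells gave 1 sequenced guide library each, after PCR of the guide sequences. The authors deposited raw counts of reads per guide, and a second table of normalized counts, a signal equal to raw counts times a factor of 0.982 (unsorted) or 1.02 (TRT-negative). The submitters' processing notes name MAGeCK and hg38. For its version and the rule for assigning reads, the sources used here give nothing. Tables of the authors' own MAGeCK comparison (fold changes, scores, p-values and ranks) were not used.

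Totals were 12882989 and 12444427 reads, so that 3 reads are 2.33e-05% and 2.41e-05% of a library. A guide was detected with at least 1 raw read and called abundant at or above the median of detected protein-coding guides. The ratio was log2((TRT-negative + 1)/(unsorted + 1)) of normalized counts with a pseudocount of 1, and was summarised for guides with at least 30 unsorted reads. Intervals of shares are Clopper-Pearson 95% intervals, and those of ratios are exact conditional binomial intervals of the raw reads. With 1 library per condition no test was made. Shares were set beside those of all 114123 protein-coding guides. The 2-fold limit for ratios was added after the values were seen.

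The 9 genes and the pathway lists were chosen with earlier results of these data known. Named were all 9 genes and, of each list, the 2 genes with most unsorted reads and the gene with most enriched guides, ties going to the gene with most TRT-negative reads (RB and CDK, Hippo and TGF-beta lists, where each such gene had 1). Alternatives covered scaling, pseudocounts of 0.5 and 5, read minimums of 10 and 100, other limits for abundant and enriched guides, each sublibrary, rows with identical adjacent counts, and leaving out CDKN2A or LATS1. Ratios, their intervals and the 2-fold calls were tried on simulated counts with counting error only, for guides with at least 30 unsorted reads. Real guides spread more. Of the non-targeting guides of that depth, 8.33% were at least 2-fold higher and 47.4% at least 2-fold lower. The simulation thus checks the calculation and not how often such calls arise in these data. Detected, abundant and enriched calls were not simulated. Gene positions are from GENCODE 44 (hg38), with all 9 symbols matched. Calculations used scipy 1.17.1, pandas 2.3.3 and numpy 2.4.6 under Python 3.11.15, and figures matplotlib 3.10.9.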

Additional observations from a re-analysis of the deposited data

How the results depend on the processing

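Of 44 alternatives over 9 results, 33 stayed within the interval of the reported value. The shares of detected and abundant guides moved outside their intervals under no alternative run. The number of enriched guides of the 9 genes was 0 under each too, but nothing is read from this. The highest ratio of their guides was 4.78 (NF1, 0 and 26 reads), under the limit of 5.93, and no looser percentile was tried. Of the 54 rows, 0 had identical adjacent counts, so leaving such rows out could not change these counts. The abundant share was 11.1% at 100 reads, 3.70% at the upper quartile and 1.85% at the 90th percentile, against 8.91%, 2.62% and 1.05% of protein-coding guides. The median log2 ratio of -0.78 became 0.13 when non-targeting guides set the scale, where that of all protein-coding guides became 0.27. It was -0.51 with a minimum of 10 unsorted reads, which adds NF2, and also -0.51 without CDKN2A, and -1.04 without LATS1. The share of unsorted reads was 0.0580% without rows of identical adjacent counts, 0.0336% without CDKN2A and 0.0433% without LATS1, and that of TRT-negative reads 0.0590%, 0.0483% and 0.0211%. The member rows were then 0.0447%, 0.0389% and 0.0389% of the rows. At least 4-fold higher were 0 of 6 guides (0.00%) in place of 1 at 2-fold, and at least 4-fold lower 1 of 6 (16.7%) in place of 3. With the non-targeting scale, 1 of the 6 member guides was at least 2-fold higher and 1 at least 2-fold lower. The protein-coding shares were then 32.0% and 12.6%. Leaving out LATS1, and the alternatives to the 2-fold limit, were chosen after seeing the data. With 54 guides, a share must differ from 10.5% by far more than that seen here to leave its interval, and with 1 library per condition the spread between samples is unknown.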
